A study of Mus musculus with 44 samples.

Results

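Mouse small intestinal organoids were compared after 7 days and after 6 days of RANKL, in single cells sorted into 384-well plates. The members are the 3 plates of day 7 and the 3 plates of day 6, with wells of at least 1000 unique molecular identifiers (UMIs, counted mRNA molecules) kept and their counts summed per plate. This gave 6 of the 44 plates of the series, with 773 cells on day 6 and 786 on day 7. These 1559 cells are part of the 6558 cells in the 30 plates of the RANKL-only arm. That arm runs from day 0, before any RANKL was given, to day 9. All plates come from organoids of a single female mouse heterozygous for Lgr5GFPDTR, in which 1 Lgr5 allele carries green fluorescent protein and the diphtheria toxin receptor. Both groups had ENR medium (EGF, NOGGIN and R-SPONDIN1), then 3 µM CHIR99021 with 1.5 mM valproic acid for 3 days, then ENR alone for 1 day, and then 100 ng/mL RANKL for 6 or 7 days. CHIR99021 inhibits GSK3 and so raises Wnt signalling, and valproic acid inhibits histone deacetylases. Medium was changed every 3 days, but on which days is not given, so the day of RANKL and the time since the last change cannot be told apart. Whether the plates of a day hold cells of separate cultures is not stated, and the p-values therefore reflect only how much these plates vary, which could be technical.

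RANKL, also called TRANCE, is the ligand of RANK (Tnfrsf11a), a receptor of the TNF receptor superfamily on intestinal epithelial cells. RANK activates the canonical and the noncanonical arms of NF-kappaB, whose factors bind kappaB sites in DNA, and their targets include the inhibitors that shut the pathway down again. In the gut this signal turns crypt cells into microfold (M) cells, which carry antigen across the epithelium to lymphoid tissue and depend on the transcription factor Spib. Crypt stem cells, marked by Lgr5 and Olfm4, are kept by Wnt signals and give rise to absorptive enterocytes and to secretory cells.

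The promoters of genes that moved between the days are shown first, because 3 of the gene groups described below are known targets of a named transcription factor. Each window runs from 250 bases before the start of a gene to 50 bases after it in RefSeq (build GRCm38.p6), is written 5′ to 3′ in the sense of the gene, and has its motif in capitals. The kappaB motif was searched on both strands as GGG and TTCC with any 3 bases between them. It stood in 1825 of 32851 windows (5.56%), in 1 or more windows of 7.57% of the 7942 tested genes that had one, and in 7 of the 9 matched genes among the 10 NF-kappaB response genes that fell on day 7. It also stood in 5 of the 10 matched genes of that list that were not called, so the letters did not separate the genes that fell from the rest of their list. The windows of Ccl20 (chr1:83116516-83116815, plus strand, motif starting 80 bases before the start), Nfkbia (chr12:55492598-55492897, minus strand, 29 bases before) and Tnfaip3 (chr10:19015361-19015660, minus strand, matches 12 bases before and 33 bases after) are genes of this list with lower counts on day 7:
Ccl20: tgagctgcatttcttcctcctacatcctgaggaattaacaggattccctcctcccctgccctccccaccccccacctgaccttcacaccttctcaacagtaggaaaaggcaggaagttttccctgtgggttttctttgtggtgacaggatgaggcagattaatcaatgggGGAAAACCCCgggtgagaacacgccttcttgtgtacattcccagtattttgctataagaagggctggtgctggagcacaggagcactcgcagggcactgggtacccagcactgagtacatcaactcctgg
Nfkbia: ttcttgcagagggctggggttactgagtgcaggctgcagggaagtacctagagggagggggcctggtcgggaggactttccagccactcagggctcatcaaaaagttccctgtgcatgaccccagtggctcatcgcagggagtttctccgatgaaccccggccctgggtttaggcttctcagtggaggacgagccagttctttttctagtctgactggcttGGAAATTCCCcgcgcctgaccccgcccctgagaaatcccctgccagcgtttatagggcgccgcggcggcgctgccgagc
Tnfaip3: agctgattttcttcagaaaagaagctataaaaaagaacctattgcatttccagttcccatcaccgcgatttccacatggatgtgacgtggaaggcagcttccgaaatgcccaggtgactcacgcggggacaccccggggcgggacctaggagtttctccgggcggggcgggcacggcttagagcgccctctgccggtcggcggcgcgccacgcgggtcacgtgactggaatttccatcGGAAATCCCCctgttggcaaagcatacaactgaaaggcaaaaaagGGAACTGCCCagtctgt
A sterol response motif, searched as TCACNCCAC on both strands, stood in 1.24% of all windows, in 1.33% of the tested genes and in 1 of the 9 matched genes among the 14 cholesterol synthesis genes that rose. That gene was Hmgcs1, the synthase of the mevalonate pathway (chr13:119690101-119690400, plus strand, 137 bases before the start):
Hmgcs1: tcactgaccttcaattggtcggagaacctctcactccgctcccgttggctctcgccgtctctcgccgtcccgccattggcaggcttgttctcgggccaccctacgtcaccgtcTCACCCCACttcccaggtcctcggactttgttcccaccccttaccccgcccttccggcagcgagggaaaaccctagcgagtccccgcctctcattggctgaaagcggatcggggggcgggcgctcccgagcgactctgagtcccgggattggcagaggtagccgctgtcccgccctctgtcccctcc
An E2F motif, searched as TTTNGCGC on both strands, stood in 1.38% of all windows, in 3.08% of the tested genes, in 4 of the 13 matched genes among the 16 replication genes that rose, and in 4 of the 12 matched genes of that list that were not called. The window of Mcm3, a subunit of the replicative helicase, has it 38 bases after the start (chr1:20820263-20820562, minus strand):
Mcm3: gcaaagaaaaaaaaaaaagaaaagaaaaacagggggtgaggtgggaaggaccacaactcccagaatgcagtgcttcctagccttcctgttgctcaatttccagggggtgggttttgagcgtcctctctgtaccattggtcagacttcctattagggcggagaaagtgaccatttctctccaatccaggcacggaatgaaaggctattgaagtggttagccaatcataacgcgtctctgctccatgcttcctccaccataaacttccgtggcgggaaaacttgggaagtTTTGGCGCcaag
These matches describe letters in a window. They do not show that a factor was bound in these cells, and a window without a match says nothing about the factor.

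The plates were of similar size. They held 240 to 267 cells on day 6 and 247 to 275 on day 7, with 883481 to 1159023 and 1099742 to 1379617 UMIs. Median UMIs per cell were 3442.5 to 3999 on day 6 and 3985.5 to 4703 on day 7 (two-sided exact permutation p = 0.2, smallest possible 0.1). The most abundant gene, CT010467.1, took 5.03%, 6.03% and 15.3% of UMIs in the day 6 plates and 5.56%, 18.7% and 10.5% on day 7. The sums per 1000000 UMIs given next are not scaled for this. Epithelial identity genes summed to 5156 to 5971 per 1000000 UMIs on day 6 and 4588 to 5906 on day 7, with 1 of 11 tested members called lower and none higher. Markers of immune cells were near 0: 7 of 12 were in the table, with 286 UMIs on day 6 and 216 on day 7, of which Cd14, a coreceptor for lipopolysaccharide, gave 272 and 205. Ptprc, the common leukocyte antigen, had 3 and 1 UMIs. Stromal, endothelial and neural markers held 56 and 60 UMIs in all.

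Between day 6 and day 7, 10 of 23 tested NF-kappaB response genes, 9 of 14 RANK and M cell genes and 9 of 15 regenerative genes fell, while 9 of 14 crypt stem cell, 16 of 30 replication, 14 of 20 cholesterol synthesis and 9 of 23 glycolysis and hypoxia genes rose. The other tested members of these 7 lists were not called. Leaving out 1 plate gave 8 to 10 NF-kappaB, 7 to 9 M cell and 6 to 7 regenerative genes lower. It gave 8 to 9 stem cell, 7 to 13 replication, 10 to 13 cholesterol and 6 to 9 glycolysis and hypoxia genes higher. Of 10000 genes tested with edgeR's quasi-likelihood test, 630 (6.30%) passed an adjusted p of 0.05 (Benjamini-Hochberg), 301 higher (3.01%) and 329 lower (3.29%) on day 7. The median log2 fold change of all tested genes was 0.02, and 272 of the calls, 93 higher and 179 lower, were larger than 2-fold. In 617 of the 630 the 3 plates of a day all lay above the 3 of the other, against 2430 (24.3%) of all genes, and 1881 (18.8%) had an unadjusted p under 0.05. Without the composition scaling the same test called 554 genes, 190 higher and 364 lower. The number of higher genes was 189 without plate 2 of day 6, 192 without plate 3 of day 6 and 195 without plate 3 of day 7. With every cell thinned to 1000 UMIs, 6472 genes were tested and 211 were called. Of the lists below, the NF-kappaB, M cell and regenerative lists then had 4, 5 and 4 members called lower, and the cholesterol, urea cycle, Wnt and enterocyte lists 9, 1, 3 and 2 called higher.

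**Figure D1:**
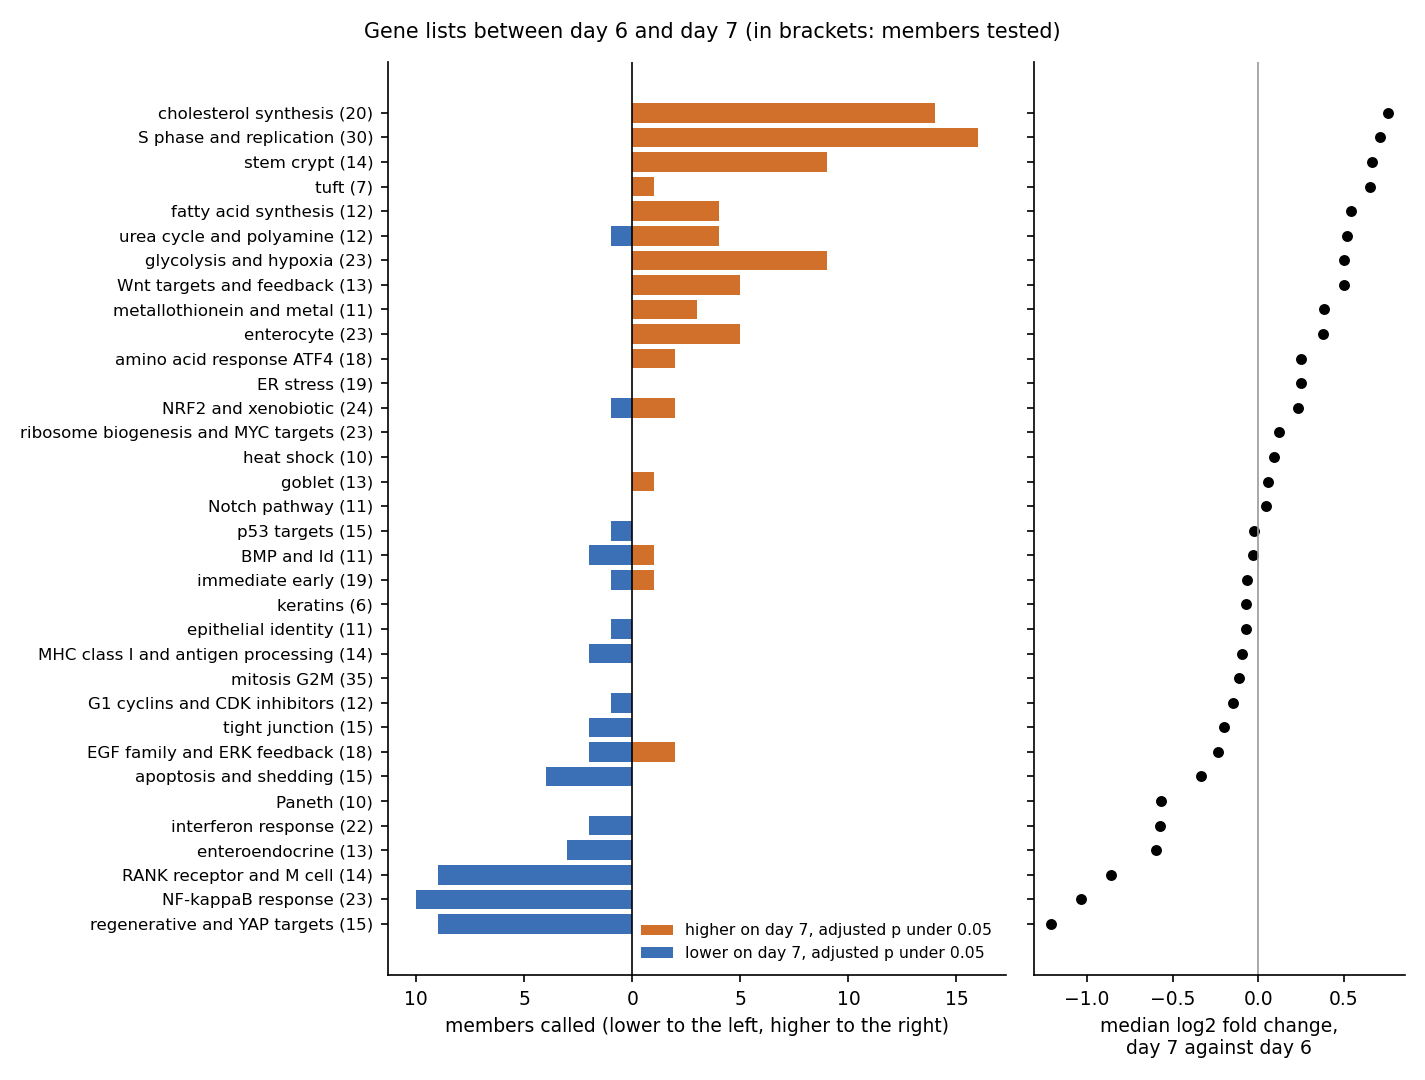
Gene lists between day 6 and day 7. Left, number of tested members called higher (right of 0) or lower (left of 0) on day 7. Right, median log2 fold change of the tested members, day 7 against day 6. Cholesterol synthesis (0.76) lies at the top and regenerative and YAP targets (-1.21) at the bottom.

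Of 14 tested members of the RANK and M cell list, 9 were called lower and none higher, and their median log2 fold change was -0.86. Tnfrsf11a itself, the receptor for RANKL (chr1:105780718-105847981), was at 196, 203 and 186 normalised CPM (counts per 1000000 UMIs, scaled between plates by edgeR's trimmed mean) in plates 1 to 3 of day 6, and at 108, 135 and 146 on day 7. All 3 plates of day 7 lay below all plates of day 6, and the log2 fold change was -0.59 ± 0.14 (SE; adjusted p = 0.00567, but 0.0603 without plate 1 of day 7 and 0.425 in thinned cells). Spib, the transcription factor that M cells need, was at 23.8, 18.6 and 31.3 CPM on day 6 and at 3.39, 1.55 and 2.64 on day 7. It fell by 3.25 ± 0.51 on the log2 scale (adjusted p = 5.38e-05, and 0.0949 in thinned cells), from 81 UMIs in 42 cells to 9 UMIs in 7 cells. Onecut2, the transcription factor that the inhibitor arm of the study targets, was at 551, 623 and 577 CPM and then at 347, 428 and 419. Its log2 fold change was -0.55 ± 0.15 (adjusted p = 0.0142), a call lost without plate 2 of day 6 (0.0701), without plate 1 of day 7 (0.104) and in thinned cells (0.164). Anxa5, an annexin found in M cells, went from 243, 208 and 288 CPM to 108, 97.6 and 79.2, a fall of 1.38 ± 0.15 (adjusted p = 1.39e-07). Serpinb1a, a protease inhibitor used as an M cell marker, went from a mean of 295 ± 69.9 to 123 ± 18.5 CPM (SD, n = 3). Not every tested member fell: Marcksl1, Rac2, Ccl9, Fabp5 and Pglyrp1 were not called, and 2 of the 14 had a positive log2 fold change. The M cell genes Gp2, Sox8 and Tnfaip2 were below the filter on low counts and were not tested.

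Of 23 tested members of the NF-kappaB response list 10 were called lower and none higher, 19 had a negative log2 fold change, and the median was -1.03. Ccl20, the chemokine that draws CCR6-bearing lymphocytes to the epithelium (chr1:83116766-83119167), was at 377, 220 and 392 CPM on day 6 and at 90.6, 55 and 34.3 on day 7. Its fall of 2.46 ± 0.28 on the log2 scale (adjusted p = 2.55e-07) was 5.49-fold. Cxcl16, the ligand of CXCR6, fell from 65.3, 80.7 and 59.2 CPM to 26.3, 10.8 and 22, by 1.80 ± 0.26 (adjusted p = 1.12e-05). Of the pathway's inhibitors in the list, Nfkbia, Nfkbie, Tnfaip3 and Tnip1 were lower, and Nfkbib, Nfkbiz and Traf3 were not called. Nfkbia, which holds NF-kappaB in the cytoplasm (chr12:55489410-55492647), was at 961, 1009 and 950 CPM and then at 455, 444 and 457, with little spread within either day and no overlap. It fell by 1.11 ± 0.14 (adjusted p = 1.07e-06). Tnfaip3, the ubiquitin-editing enzyme A20, went from a mean of 163 ± 40.5 to 68.8 ± 7.25 CPM (fall of 1.25 ± 0.19, adjusted p = 2.23e-05). Tnip1, a partner of A20, and Nfkb2, the subunit of the noncanonical arm, fell by 1.06 ± 0.19 and 1.03 ± 0.21, calls that were lost in thinned cells (adjusted p = 0.425 and 0.0684). The other subunits did not pass the test: Rela was at 43.8 ± 5.77 and 25.2 ± 6.55 CPM (adjusted p = 0.0688), Relb at 43.4 ± 11.4 and 33 ± 7.31 (0.395), and Nfkb1 at 139.7 ± 21.2 and 151 ± 22.3 (0.781). Ccl20 belongs to both this list and the M cell list.

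**Figure D2:**
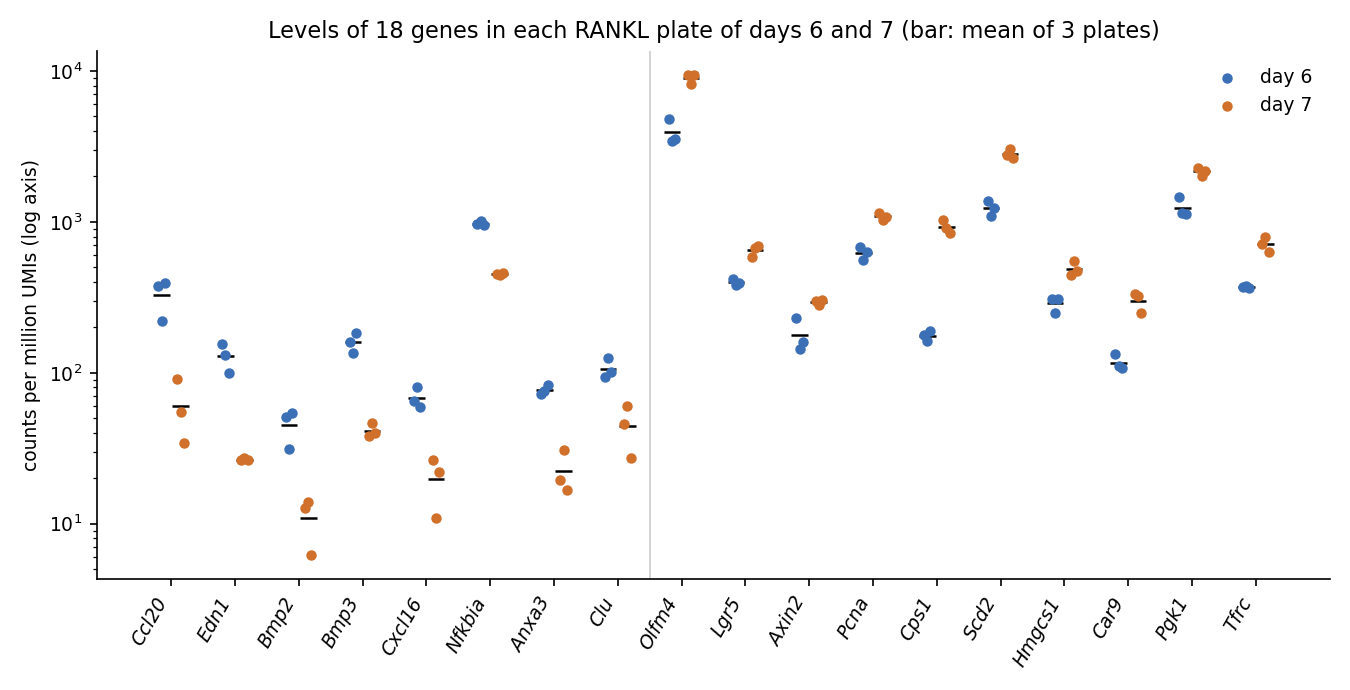
Normalised CPM (log axis) of 18 genes in each of the 3 plates of day 6 (blue) and day 7 (orange); black bars are means. The 8 genes left of the grey line fell and the 10 right of it rose, and in none of them do the plates of the days overlap.

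The list of fetal-like regenerative genes and YAP targets, which mark repair of damaged epithelium, had 9 of 15 tested members called lower and none higher, with a median of -1.21. Krt7, Anxa2, Ccn2, Ccn1, Sprr1a and Anxa1 were tested and not called, and 3 of the 15 had a positive log2 fold change. The count of lower members was 6 or 7 with any single plate left out, and 6 by DESeq2. Edn1, the vasoactive peptide endothelin-1 (chr13:42301476-42307990), was at 156, 130 and 100 CPM on day 6 and at 26.3, 27.1 and 26.4 on day 7. It fell by 2.27 ± 0.21 on the log2 scale (adjusted p = 1.24e-08), or 4.83-fold. Clu, the secreted chaperone clusterin that marks revival stem cells, went from 93.6, 125 and 101 CPM to 45.7, 60.4 and 27.3 (fall of 1.24 ± 0.27, adjusted p = 0.00216). Anxa3, another annexin, went from 72.4, 75.5 and 82.7 CPM to 19.5, 31 and 16.7 (fall of 1.76 ± 0.30, adjusted p = 0.000177). Areg, the EGF receptor ligand amphiregulin, went from 68.8 ± 5.3 to 28.1 ± 6.52 CPM (adjusted p = 0.00159, and 0.0546 in thinned cells). None of these 4 genes overlapped between the days. In the BMP and Id list 1 of 11 tested members, Bmp7, was higher and 2 were lower, Bmp2 and Id3, with a median of -0.03. The call of Bmp7 was lost in thinned cells and without plate 1 or 2 of either day. Among the ligands, Bmp2 fell from 45.4 ± 12.5 to 10.9 ± 4.18 CPM (by 2.04 ± 0.32, adjusted p = 5.11e-05) and Bmp3, an atypical BMP outside this list that opposes the others, from 159 ± 24.6 to 41.4 ± 4.47 (by 1.94 ± 0.21, adjusted p = 1.39e-07). Id3, a BMP target, was at 15.3 ± 3.68 and 3.61 ± 0.96 CPM (adjusted p = 0.00853), a call lost without plate 1 of day 6 (0.0552), without plate 1 of day 7 (0.0506) and in thinned cells (0.326), while Id1 did not pass (8.26 ± 1.29 and 5.59 ± 1.89 CPM, adjusted p = 0.5).

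Other genes with large falls are described here singly, and not as a group. Reg3g, a bactericidal lectin, was at 1769, 1558 and 2006 CPM on day 6 and at 733, 644 and 564 on day 7, a fall of 1.46 ± 0.23 (adjusted p = 5.89e-05). Reg3b, its relative, varied too much between plates to pass, at 591, 165 and 487 CPM and then 226, 278 and 31.7 (adjusted p = 0.309). Sema5a, a semaphorin guidance protein, was at 342, 279 and 304 CPM and then at 99.1, 115 and 97.7 (fall of 1.57 ± 0.15, adjusted p = 2.05e-08). Cldn4, a claudin of the tight junction, fell from 70 ± 9.95 to 22.9 ± 3 CPM, 1 of 2 lower members among 15 tested junction genes, a count of 1 without plate 2 of day 6, without plate 1 or 3 of day 7 and in thinned cells. Casp4, the inflammatory caspase that senses cytosolic lipopolysaccharide, fell from 211 ± 23 to 82.5 ± 20.9 CPM, by 1.36 ± 0.16 (adjusted p = 3.51e-07). It was 1 of 4 lower members of the 15 tested genes of cell death and shedding, a count of 2 without plate 2 of day 7 and in thinned cells. Klf6, an immediate early zinc finger factor, fell from 242 ± 37.3 to 119 ± 11.7 CPM, and Cdkn2b, a cyclin-dependent kinase inhibitor, from 76.1 ± 8.91 to 41.3 ± 9.27. Dhrs3, a retinal reductase, Ces2a, a carboxylesterase, Tm4sf4, Maml2, Igsf9 and Serpina1b were also among the 15 largest falls, with log2 fold changes between -1.42 and -2.04.

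Of 14 tested crypt stem cell genes 9 were called higher and none lower, with a median log2 fold change of 0.66. Olfm4, a secreted glycoprotein of crypt base cells (chr14:79984081-80023139), was at 4819, 3445 and 3530 CPM on day 6 and at 9436, 8253 and 9420 on day 7. It rose by 1.20 ± 0.18 on the log2 scale (adjusted p = 1.98e-05), and no other called stem gene had as many UMIs (12845 and 32491). Lgr5, the R-spondin receptor of stem cells (chr10:115450311-115587780), was at 419, 380 and 393 CPM and then at 584, 668 and 689, a rise of 0.70 ± 0.13 (adjusted p = 0.000326). Axin2, a Wnt target that dampens Wnt signalling, went from 230, 145 and 161 CPM to 300, 280 and 305 (rise of 0.72 ± 0.16, adjusted p = 0.00312). Lrig1, a brake on ERBB receptors in stem cells, went from 93.9 ± 11.3 to 161 ± 16.1 CPM, and Cdca7 from 254 ± 11 to 395 ± 35.5. Ascl2, the transcription factor that sets stem cell identity, rose from 88 ± 10.5 to 146 ± 26 CPM (adjusted p = 0.0091), a call lost without plate 1 of day 6 (0.0737) and without plate 3 of day 7 (0.117). Not every crypt gene followed: Slc12a2 (4240 ± 526 and 4362 ± 238 CPM), Sox9 (797 ± 47.6 and 908 ± 47.8) and Aqp4 (261 ± 18.4 and 339 ± 35.3) did not pass. Of 13 tested Wnt targets and feedback genes 5 were called higher and none lower (median 0.50), of which Lgr5, Axin2 and Ascl2 are also in the stem list. That count was 2 without plate 1 of day 6, and 3 without plate 1 or without plate 3 of day 7. Myc and Cd44, also Wnt targets, were at 340.5 ± 34 and 326 ± 16.7 CPM and at 348 ± 44 and 351 ± 34.9. In the Notch list, none of 11 tested members was called by edgeR or DESeq2 (1 at an unadjusted p under 0.05), and Hes1, its main target, was at 436 ± 75.2 and 449 ± 28.7 CPM.

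All 30 tested genes of S phase and replication had a positive log2 fold change (median 0.71), and 16 were called higher, but only 7 without plate 3 of day 6, 9 without plate 3 of day 7 and 5 in thinned cells. Pcna, the sliding clamp of DNA polymerase, was at 683, 561 and 629 CPM on day 6 and at 1145, 1029 and 1086 on day 7 (rise of 0.80 ± 0.16, adjusted p = 0.00112). Mcm4, a helicase subunit, was at 132, 144 and 117 CPM and then at 235, 235 and 217 (rise of 0.81 ± 0.16, adjusted p = 0.000946). Rrm2, the subunit of ribonucleotide reductase that follows S phase, rose from 112 ± 21.8 to 210 ± 16.7 CPM. In these genes the plates of the days did not overlap. Of 35 tested G2 and mitosis genes none was called in either direction by edgeR or DESeq2 (4 at an unadjusted p under 0.05), and 14 were positive and 21 negative (median -0.11). The difference between the lists was not tested. Mki67, a marker of cycling cells, was at 264, 318 and 383 CPM and then at 213, 351 and 286, which overlap (log2 fold change -0.18 ± 0.23, adjusted p = 0.755). Top2a, the topoisomerase that peaks in G2, was at 726 ± 122 and 729 ± 123 CPM.

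All 20 tested cholesterol synthesis genes had a positive log2 fold change (median 0.76), and 14 were called higher and none lower. Hmgcs1, a synthase early in the mevalonate pathway, was at 306, 249 and 309 CPM on day 6 and at 445, 552 and 473 on day 7 (rise of 0.76 ± 0.14, adjusted p = 0.000385). Msmo1, a methylsterol monooxygenase, was at 202, 206 and 215 CPM and then at 451, 460 and 445 (rise of 1.12 ± 0.13, adjusted p = 4.33e-07). The spread within a day was small beside these differences. Idi1, Acat2 and Sqle rose by 0.99 ± 0.14, 1.00 ± 0.14 and 0.84 ± 0.15. Of 12 tested fatty acid synthesis genes 4 were called higher and none lower (median 0.54). Scd2, a stearoyl-CoA desaturase, was at 1373, 1098 and 1237 CPM and then at 2795, 3057 and 2631 (rise of 1.19 ± 0.13, adjusted p = 1.12e-07). Scd1, the other desaturase, was at 34.4, 42.4 and 51.3 CPM and then at 174, 139 and 151 (rise of 1.86 ± 0.22, adjusted p = 6.11e-07). Elovl6, an elongase that supplies the desaturases, rose from 45.6 ± 8.78 to 80.3 ± 8.34 CPM. Fasn, fatty acid synthase, was at 70.3 ± 16.7 and 105 ± 31.8 CPM, with overlapping plates (adjusted p = 0.079).

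All 23 tested genes of glycolysis and the hypoxia response had a positive log2 fold change (median 0.50), and 9 were called higher and 14 were not called, a count of 6 higher without plate 2 of day 6. Pgk1, phosphoglycerate kinase, was at 1467, 1148 and 1120 CPM on day 6 and at 2289, 2014 and 2183 on day 7 (rise of 0.80 ± 0.13, adjusted p = 5.42e-05). Car9, the carbonic anhydrase induced by HIF1, was at 132, 111 and 108 CPM and then at 331, 322 and 249 (rise of 1.36 ± 0.16, adjusted p = 4.03e-07). Ldha, lactate dehydrogenase, went from 621 ± 47.6 to 1062 ± 112 CPM, Pfkp, phosphofructokinase, from 52.3 ± 2.9 to 97.5 ± 7.18, and Ndrg1 from 75.1 ± 6.02 to 150 ± 10.7. Vegfa, another HIF1 target, did not pass (115 ± 1.5 and 127 ± 17.4 CPM, adjusted p = 0.683).

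The smallest p of all genes belonged to Cps1, the mitochondrial synthase of carbamoyl phosphate that opens the urea cycle (chr1:67123026-67231259). It was at 178, 161 and 190 CPM on day 6 and at 1026, 907 and 839 on day 7. All plates of day 7 were far above those of day 6, and the rise of 2.39 ± 0.15 on the log2 scale (5.23-fold) had an adjusted p of 1.49e-13. Of 12 tested urea cycle and polyamine genes 4 were called higher, Cps1, Odc1, Oat and Otc, and 1 lower, Sat1. The call of Otc was lost without any single plate other than plate 3 of day 7 (adjusted p = 0.0551 to 0.161), and that of Sat1 without plate 2 of day 6 (0.158), plate 1 of day 7 (0.11) or plate 2 of day 7 (0.0975). Odc1, which makes the polyamine putrescine, went from 111 ± 9.18 to 185 ± 3.04 CPM (adjusted p = 0.000326, and 0.181 in thinned cells), and Oat, ornithine aminotransferase, from 11 UMIs to 52. Psat1, an enzyme of serine synthesis, rose from 77.7, 63.1 and 65.3 CPM to 196, 163 and 161 (by 1.33 ± 0.15, adjusted p = 1.39e-07), 1 of 2 higher members among 18 tested genes of the amino acid response, a count of 1 without plate 2 or 3 of day 6, without plate 3 of day 7 and in thinned cells. Tfrc, the transferrin receptor for iron uptake, was at 372, 378 and 362 CPM and then at 719, 800 and 629 (rise of 0.95 ± 0.12, adjusted p = 1.76e-06), and Slc11a2, an iron importer, at 29 ± 8.2 and 101 ± 27 (adjusted p = 0.00241, and 0.192 in thinned cells). These were 2 of 3 higher members among 11 tested metallothionein and metal genes. Ckb, the brain type creatine kinase, rose from 21.5 ± 2.57 to 91.7 ± 12 CPM (by 2.08 ± 0.21, adjusted p = 2.05e-08). Rgcc, a regulator of the cell cycle, rose from 54.2 ± 6.07 to 184 ± 25.9 CPM (by 1.76 ± 0.22, adjusted p = 1.15e-06). Kctd14, Tent5c and Tm7sf2, a sterol reductase outside the list, were also among the 15 largest rises, by 1.46 ± 0.18, 1.59 ± 0.22 and 1.28 ± 0.21.

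Of 23 tested enterocyte genes 5 were called higher and none lower (median 0.38). Mttp, which loads lipid onto apolipoproteins, was at 29.1, 20.7 and 40.9 CPM on day 6 and at 138, 83.7 and 80.1 on day 7 (rise of 1.71 ± 0.34, adjusted p = 0.00114). Fabp2, a fatty acid binding protein, was at 11.5, 7.24 and 10.4 CPM and then at 94, 51.1 and 35.2 (rise of 2.60 ± 0.39, adjusted p = 2.65e-05). Plate 1 of day 7 had the highest level of both genes. Fabp1, the liver type binding protein, was at 61.8 CPM in that plate and at 13.9 and 10.6 in the others, against 2.65, 0 and 3.48 on day 6 (adjusted p = 0.0117, but 0.222 without plate 1 of day 7, 0.0667 without plate 2 of day 6 and 0.0566 in thinned cells). Rbp2, which binds retinol, had 0 UMIs on day 6 and 13 on day 7. With a floor of 3 UMIs set over the day 6 plates together, this is at least 3.73-fold higher, and the median of the list is the same with it at that bound. Alpi, alkaline phosphatase (29.4 ± 5.13 and 55.4 ± 11.5 CPM, adjusted p = 0.256), and Apoa4, an apolipoprotein (38.3 ± 23.6 and 31.7 ± 34.6, adjusted p = 0.864), did not pass.

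Secretory genes were sparse. In the enteroendocrine list 3 of 13 tested members were called lower and none higher: Neurog3, the factor that starts this lineage, from 28 UMIs to 5, Nkx2-2 from 33 to 6 and Rfx6 from 48 to 7. The count over the list was 0 without plate 1 or without plate 2 of day 7 and 1 without plate 3 of day 7. It was 2 without any single plate of day 6 and 0 in thinned cells. Without plate 1 of day 6 the calls of Neurog3 (adjusted p = 0.0824) and Nkx2-2 (0.141) were lost, and another member was called. The count was 1 by DESeq2, 1 in wells with 2000 or more UMIs and 6 with no filter on low counts. The hormone granule gene Chga had 4 UMIs on day 6 and 1 on day 7. None of 10 tested Paneth cell genes was called by edgeR or DESeq2 (4 at an unadjusted p under 0.05), and Lyz1, lysozyme, was at 1.77, 80.7 and 26.1 CPM on day 6 and at 13.5, 34.1 and 7.92 on day 7, a spread within each day larger than the difference. Muc2, the goblet cell mucin, was at 6.18, 36.2 and 5.22 CPM and then at 24.6, 14.7 and 1.76, and 1 of 13 tested goblet genes was called higher, Galnt12 (adjusted p = 0.021, but 0.0623 by DESeq2, 0.0656 without composition scaling, 0.431 in thinned cells and 0.0568 to 0.0927 without any single plate other than plate 1 of day 7). In the tuft list 1 of 7 tested genes was higher, Rgs13 (18 UMIs and 107, adjusted p = 0.0481, but 0.298 by DESeq2 and 0.0738 to 0.136 with any single plate left out). Of 19 immediate early genes 1 was lower, Klf6, and 1 higher, Fos, at 87.4, 83.8 and 116 CPM and then 156, 126 and 298. Its adjusted p was 0.00781, and 0.227 in thinned cells, 0.244 without plate 3 of day 7, 0.0515 without plate 1 of day 6 and 0.0554 without plate 2 of day 6.

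The remaining lists had few calls. In the interferon list 2 of 22 tested members were lower and none higher, with a median of -0.57 and 17 negative. That count was 0 without plate 1 or 3 of day 7 and 1 without plate 1 or 3 of day 6 or plate 2 of day 7. Among 14 antigen presentation genes 2 were lower, among them H2-M2 (130 ± 22.7 and 50.6 ± 12.5 CPM), a nonclassical class I gene that is also in the M cell list. In 18 EGF family genes 2 were higher and 2 lower, in 24 xenobiotic and NRF2 genes 2 were higher and 1 lower, and in 12 G1 cyclins and inhibitors and in 15 p53 targets 1 each was lower. The antigen presentation count was 1 without plate 1 of day 6, without plate 3 of day 7 and in thinned cells. In thinned cells the EGF family had 1 higher and 0 lower, and the xenobiotic list and p53 targets had none. The EGF family had 1 higher without plate 2 of day 6. The lower call of the xenobiotic list was lost without any single plate other than plate 1 of day 6. The p53 call, of Zmat3, was likewise lost when any single plate other than plate 1 of day 6 was left out. Without plate 2 of day 7 a different p53 target was called, and 2 were called without plate 1 of day 6. None was called by edgeR among 19 endoplasmic reticulum stress, 10 heat shock, 23 ribosome biogenesis and MYC target, and 6 keratin genes, of which 8, 2, 4 and 0 had an unadjusted p under 0.05, and DESeq2 called 1, in the ribosome list. Of 20 replication-dependent histone genes 1 could be tested, and it was not called.

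**Figure D3:**
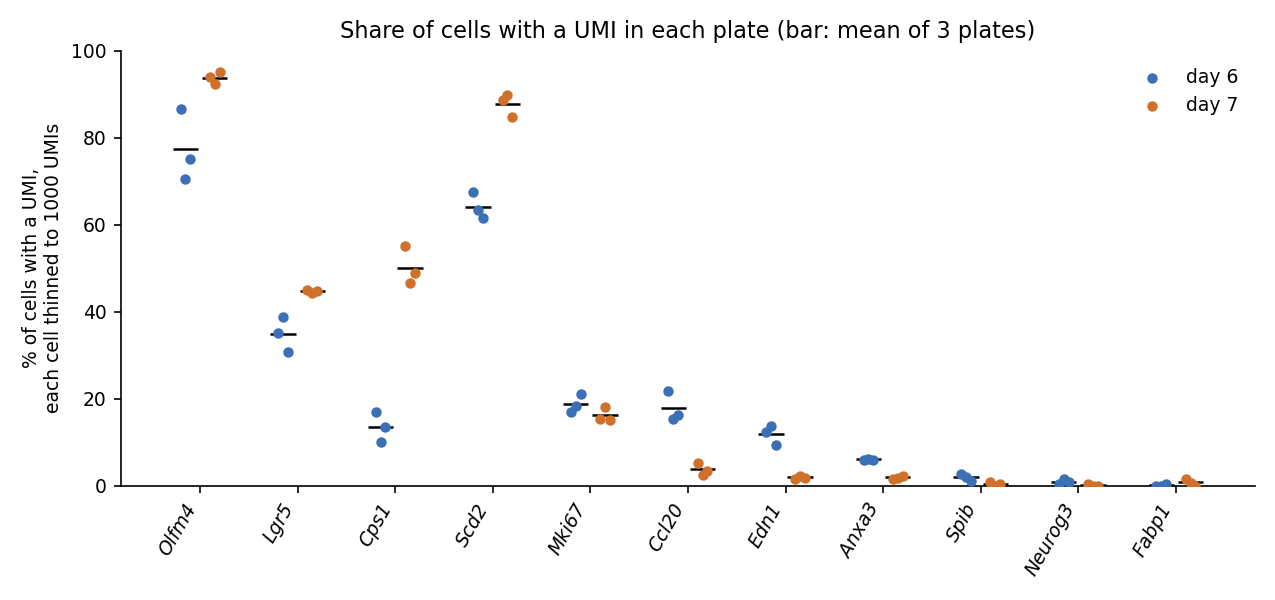
Percent of cells with at least 1 UMI of each gene after every cell was thinned to 1000 UMIs, for the 3 plates of day 6 (blue) and of day 7 (orange); black bars are means. Olfm4, Lgr5, Cps1 and Scd2 are higher in all plates of day 7, and Ccl20, Edn1, Anxa3 and Spib lower.

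In plate sums, fewer expressing cells and less RNA per cell cannot be told apart, so the share of cells with a UMI was counted after thinning each cell to 1000 UMIs. With 3 plates a day the smallest two-sided exact permutation p is 0.1, and the smallest adjusted p over the 18 genes fixed for this count was 0.45, so no share passed a threshold. Cps1 was seen in 16.9%, 10% and 13.5% of the cells of the day 6 plates and in 55.1%, 46.5% and 48.9% of those of day 7. Before thinning its mean share was 35.7% and 84%. Olfm4 was in 86.5%, 70.4% and 75.2% of cells and then in 93.9%, 92.4% and 95.1% (exact p = 0.1), and its thinned UMIs per positive cell were 5.37 and 10.7. For Lgr5 the shares were 35.2%, 38.8% and 30.8% on day 6 and 44.9%, 44.4% and 44.7% on day 7 (exact p = 0.1). Mki67 was in 16.9%, 18.3% and 21.1% and then in 15.4%, 18.2% and 15.2%, which overlap (exact p = 0.2). Nfkbia, found in 54.3%, 56.7% and 53% of cells on day 6 and in 32.4%, 32.4% and 33.3% on day 7, had 1.79 and 1.31 thinned UMIs per positive cell. A UMI of Edn1 was seen in 12.4%, 13.8% and 9.4% and then 1.62%, 2.18% and 1.89%, and one of Ccl20 in 21.7%, 15.4% and 16.2% and then 5.26%, 2.55% and 3.41%. Cps1, Nfkbia, Edn1 and Ccl20 are outside the 18 fixed genes and were taken for their change in these plates, so their shares are a description with no test. With 1.23 to 1.83 thinned UMIs per positive cell in these 4 genes, the share follows the level and does not separate fewer cells from less RNA per cell. Spib was in 2.62%, 2.08% and 1.13% of cells and then in 0.81%, 0% and 0.379%, close to the level of single UMIs (exact p = 0.1).

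**Figure D4:**
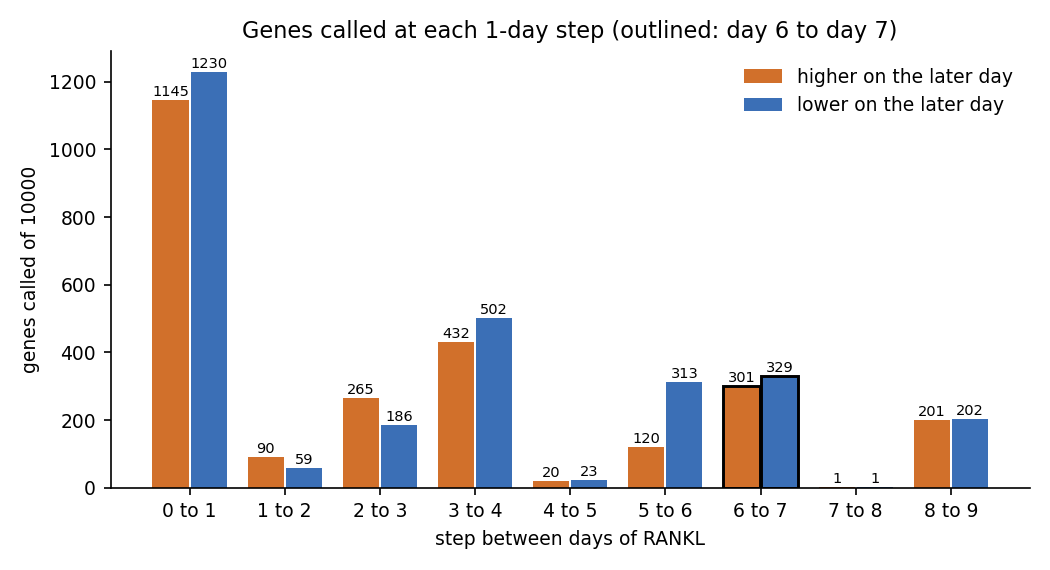
Number of genes called higher (orange) or lower (blue) on the later day of each 1-day step of RANKL, of 10000 genes tested in the same fit. The outlined bars are day 6 to day 7, with 301 and 329; the next step, day 7 to day 8, has 1 and 1.

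Set among its neighbours, the step from day 6 to day 7 lay between a step with 433 calls (4.33%, day 5 to day 6) and a step with 2 calls (0.02%, day 7 to day 8). Those steps share plates with this one, so their values are given side by side and are not independent of it. Against the mean of days 6 and 8, 181 genes (1.81%) were called on day 7, 94 higher (0.94%) and 87 lower (0.87%). That number was 120 without plate 3 of day 6, and 57, 95 and 60 without plates 1, 2 and 3 of day 7. For Olfm4 the means of days 5 to 9 were 7953, 3932, 9036, 7010 and 3002 CPM. Cps1 was at 499, 176, 924, 702 and 277 CPM, Scd1 at 310, 42.7, 155, 163 and 56.3, and Edn1 at 40.8, 129, 26.6, 25.9 and 122. In these 4 genes day 6 and day 9 lay on the same side of days 7 and 8. Ccl20 went another way, at 594, 330, 60, 53.8 and 76.9 CPM, and Lgr5 stayed at its day 7 level, at 472, 397, 647, 615 and 635.

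**Figure D5:**
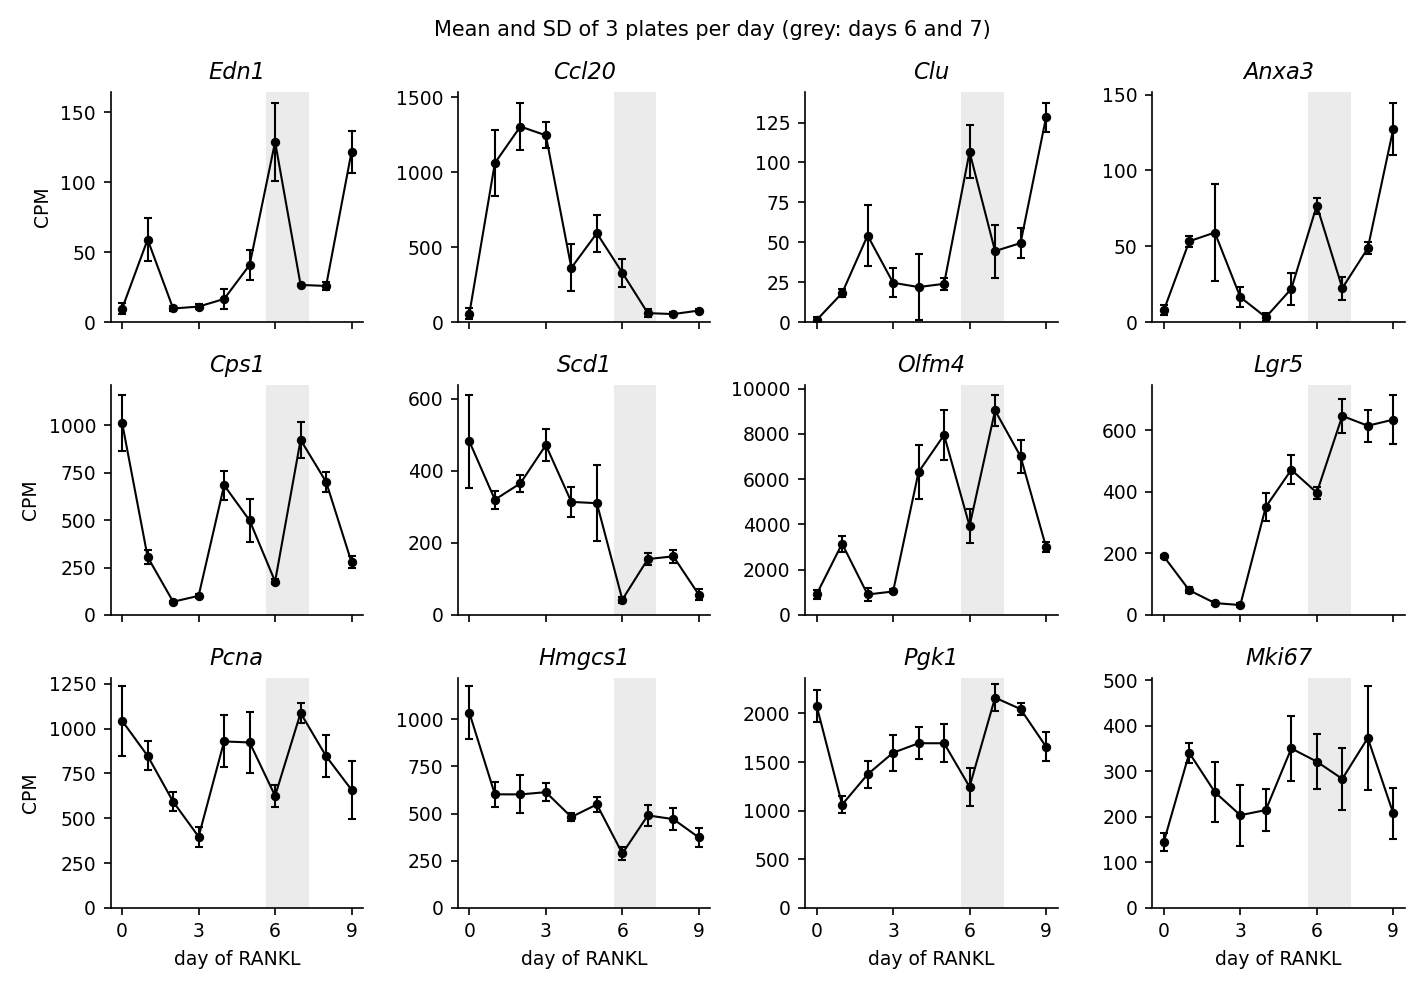
Mean normalised CPM of 12 genes on each day of RANKL, with the SD of 3 plates as error bars; grey marks days 6 and 7. Edn1, Clu and Anxa3 are high on days 6 and 9, Cps1, Scd1 and Olfm4 are low on both, and Ccl20 stays low after day 7.

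The step from day 8 to day 9 shares no plate with the step from day 6 to day 7, and this comparison was added after the values were seen. Of the 301 genes higher on day 7, 64 (21.3%) were called lower on day 9 than on day 8 and none higher, where 2.02% of all genes were called lower; they were 31.7% of the 202 genes lower at that step. Of the 329 genes lower on day 7, 85 (25.8%) were called higher on day 9 and 1 lower, where 2.01% of all genes were called higher; they were 42.3% of the 201 genes higher at that step. The steps to days 1, 2, 3 and 5 also share no plate with the step from day 6 to day 7, and they were not compared in this way. The step from day 3 to day 4 was part of the same added comparison and shares none either. There 71 of the 301 (23.6%) were higher and 25 (8.31%) lower, and 92 of the 329 (28%) were lower and 8 (2.43%) higher. Of all genes, 4.32% were called higher and 5.02% lower at that step. The day 4 plates held only 32, 120 and 45 cells.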

How the data were processed

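Single cells were sequenced with a modified CEL-Seq2 protocol, which tags each mRNA molecule at its 3′ end, per the labels' protocols. The authors deposited whole-number UMI counts per gene and well, not normalised. kallisto, bustools, Seurat 3.1.5 and the build GRCm38 are named in the submitters' processing notes. The RANKL table holds 21099 genes in 6636 wells, and no mitochondrial or spike-in rows. Its lowest well has 657 UMIs, which shows that wells were filtered before deposit. No 2 wells had identical counts.

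Counts were summed per plate over the wells that had at least 1000 UMIs. No doublet caller was run, since cells were sorted 1 to a well, and 3 of the cells of days 6 and 7 (0.192%) exceeded 3 times their plate's median UMIs. All 30 RANKL plates entered 1 fit in edgeR 4.0.16 (R 4.3.3) with trimmed-mean scaling, its default filter on low counts, and the quasi-likelihood test of day 7 against day 6, adjusted over 10000 genes at 0.05. DESeq2 1.42.0 was an alternative. Tested on simulated counts with known changes for this comparison (9678 genes), the fit recovered 52% of 2-fold and 91% of 3-fold changes, with 10 false calls. The simulation gave all genes the same dispersion and all plates the same gene proportions apart from the planted changes. Changes were planted only in genes with higher counts. The recovery therefore does not carry over to sparse genes or to the spread of the real plates. CPM are per 1000000 UMIs, and ± is the SD of 3 plates for levels and the SE for log2 fold changes. Gene coordinates are GENCODE M21, on GRCm38.

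Genes named were the 15 largest rises and falls among called genes whose plates did not overlap between days and whose mean log2 CPM reached 5, up to 4 called members per list, and genes of prior interest. Members outside that rule, such as Pcna and Tnfaip3, were chosen after their values were seen. A few list members are not reported here. The comparison and the 37 gene lists were chosen with earlier results of these data known. Other settings were the plates in the fit, the scaling, the filter, the UMI minimum, thinning, and leaving out each plate.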

Additional observations from a re-analysis of the deposited data

How the results depend on the processing

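Of the alternatives to the 630 calls (301 higher, 329 lower), thinning every cell to 1000 UMIs left 211 (93 higher, 118 lower) of the 6472 genes tested, and dropping the composition scaling left 190 higher. Leaving out 1 plate gave 442 to 507 calls, 189 to 234 higher and 238 to 280 lower. For day 7 against the mean of days 6 and 8 (181 calls), thinning left 27 (14 higher, 13 lower), dropping the scaling left 46 higher, the 15 plates of days 5 to 9 gave 143 lower and no filter gave 131 lower. Leaving out 1 plate gave 57 to 159, with 31 to 81 higher and 26 to 78 lower. Thinned cells hold fewer UMIs and a left-out plate leaves fewer plates, but these settings differ in other ways too. The cause was not tested for any setting. No direction reversed. DESeq2 called 586 genes.

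Nothing in the labels says that a replicate number marks a batch. In their deviations from the mean of their day, same-numbered plates correlated at 0.246, 0.011 and 0.108 over 5534 genes. Plates of different number correlated at -0.215 to 0.140, and plate 3 of day 6 correlated best with plate 2 of day 7 (0.140). These values do not settle whether the numbers pair the plates. With the number as a replicate block, 611 genes were called in the 30 plates, and 985 (452 higher, 533 lower) in the 6 plates alone, where the same fit without the block called 688.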
